A study of Mus musculus with 5 samples.

Results

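The miR-26 family in mouse liver consists of mmu-miR-26a-5p and mmu-miR-26b-5p (written miR-26a-5p and miR-26b-5p from here on), and its sites were taken from tables of Argonaute (Ago) binding made at 5 stages of development. Each table entry names a miRNA and a seed match inside a cluster of overlapping reads, and the members are the entries that name either miRNA, with entries at the same position counted once. There were 5334 miR-26 positions among 1645693 site positions of all miRNAs. The 3 embryonic libraries listed 2106, 1144 and 1270 miR-26 positions, the P7 library 2189 and the adult library 1405, and series of 5 values are given in this order of age throughout. The assay was HITS-CLIP, in which ultraviolet light links RNA to Ago in the tissue, Ago is precipitated with antibodies and the bound RNA is sequenced. Livers came from C57BL/6 mice (C57BL/6J in the study's methods), as embryos of 3 ages (e12.5, e15.5 and e18.5, in days of gestation), at postnatal day 7 (P7) and as adults, with no treatment given, and each stage has 1 library. The embryonic livers were precipitated with a pair of Ago2 antibodies. At P7 and in adult liver an Ago1 antibody was used as well, so the antibodies and the postnatal stages cannot be told apart. The tissue was bulk liver, and fetal liver holds blood-forming cells beside hepatocytes, so fewer cells of a type and less bound RNA per cell cannot be told apart.

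Depth and the reads on marker genes differed between the libraries. The clusters of a library held between 13008703 and 44867326 summed reads, with the highest sum at e12.5. Globins and other erythroid genes took 28.4%, 30.1%, 32.0%, 16.9% and 1.21% of the cluster reads on mRNA from e12.5 to adult, with 7 of 8 markers read in the first 4 libraries and 5 of 8 in adult. Slc4a1, the anion exchanger of red cells, was at 0 in the adult library, and Hbb-b1 was at 0 in every library. Albumin and 4 other hepatocyte genes, all read in every library, took 0.367% at e12.5 and 6.70% in adult. The part of these shifts in the results on miR-26 was not tested.

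A miRNA guides Ago to messages that pair with its seed, which is the stretch of bases 2 to 8, and Ago then lowers the translation and stability of the message. miR-26a and miR-26b are transcribed from introns of the genes for small C-terminal domain phosphatases, which act on RNA polymerase II and on the retinoblastoma protein. In liver and other tissues the family is known for restraining the cell cycle and for an influence on glucose and lipid metabolism.

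The mature sequences are shown with the seed in capitals, because both members share it and most of their listed positions. They were taken from RefSeq (GRCm38.p6).
miR-26a-5p: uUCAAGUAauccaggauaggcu
miR-26b-5p: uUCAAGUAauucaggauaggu
Counted from 1 at the 5′ end, the members differ by C11U and after position 20, where miR-26a-5p ends in cu and miR-26b-5p in u. The miR-26a sequence is encoded at Mir26a-1 on chr9:119031811-119031832, in intron 5 of Ctdspl, and at Mir26a-2 on chr10:126995543-126995564, in intron 5 of Ctdsp2. The miR-26b sequence is encoded at Mir26b on chr1:74394324-74394344, in intron 4 of Ctdsp1. All these loci lie on the plus strand.

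Sites opposite this seed read TACTTGAA for an 8mer, TACTTGA for a 7mer-m8, ACTTGAA for a 7mer-A1 and ACTTGA for a 6mer, and 5333 of 5333 positions on the chromosomes had the letters of their listed type in the genome. The following target sites are shown because they carry the results below. Each line gives 30 bases of the message strand (build mm10), with the bases that match the miRNA, and the A opposite its first base where there is one, in capitals.
0610031J06Rik, 3′UTR, chr3:88328538-88328567, plus strand: aactcccgtttcctgtggatgaaACTTGAA
Rnf149, 3′UTR, chr1:39552382-39552411, minus strand: ttactctagggcagagtttgtaTACTTGAA
Sema6d, 3′UTR, chr2:124665599-124665628, plus strand: agtactcagaagactgaacaaaTACTTGAA
Ttpa, 3′UTR, chr4:20028765-20028794, plus strand: ggaaagaagatattcctgtttgaACTTGAA
Ankrd11, 3′UTR, chr8:122883525-122883554, minus strand: ttgtttctctttctgagaaggtaACTTGAA
Mcl1, 3′UTR, chr3:95660885-95660914, plus strand: aacatgtgtatttatgaaggtggACTTGAA
Idh1, coding sequence, chr1:65159493-65159522, minus strand: gtttatggacaaacttggagaaaACTTGAA
Ssx2ip, 3′UTR, chr3:146439158-146439187, plus strand: ttggcattggaagtgtagccttTACTTGAA
Ero1lb, 3′UTR, chr13:12607961-12607990, plus strand: aggtggcagtgtataatgggatTACTTGAA
Ctdsp2, 3′UTR, chr10:126999858-126999887, plus strand: tgatacatttgttgtattcaaaaACTTGAA
Smad1, 3′UTR, chr8:79339596-79339625, minus strand: gcaaactatcgagccttgcatgTACTTGAA

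Both members were abundant on Ago at every stage. The table gives each miRNA a whole number in the name of its entries, and this number behaved as a read count: where the Mir26b locus itself was listed, its reads were 97.7% to 98.8% of it. The reads at the Mir26a loci added up to 99.0% to 99.4% of the number for miR-26a. From e12.5 to adult, miR-26a-5p made up 1.04%, 1.43%, 1.77%, 2.32% and 3.79% of all reads of miRNAs. Its share was highest in adult and lowest at e12.5, a 3.64-fold difference. miR-26b-5p made up 1.11%, 1.70%, 1.24%, 2.01% and 2.28% in the same order, with 2.06-fold between e12.5 and adult. The family therefore took 2.15%, 3.13%, 3.01%, 4.33% and 6.07%, and ranked 8 among 629 seed families at e12.5 and 5 among 488 in adult liver. The e15.5 and e18.5 shares were nearly the same, and each other step was upward by 1.40-fold to 1.46-fold. The embryonic steps depended on the lists described below: the first lists gave 2.17%, 1.78% and 2.96% and the second lists 2.14%, 3.58% and 3.14%, so the e15.5 share was the lowest of the 3 in the first lists and the highest in the second. Counting error is small at this depth (for the adult share the 95% Wilson interval is 6.06% to 6.08%), and with 1 library a stage no difference could be tested against the spread between livers. The intervals cover counting error only.

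**Figure D1:**
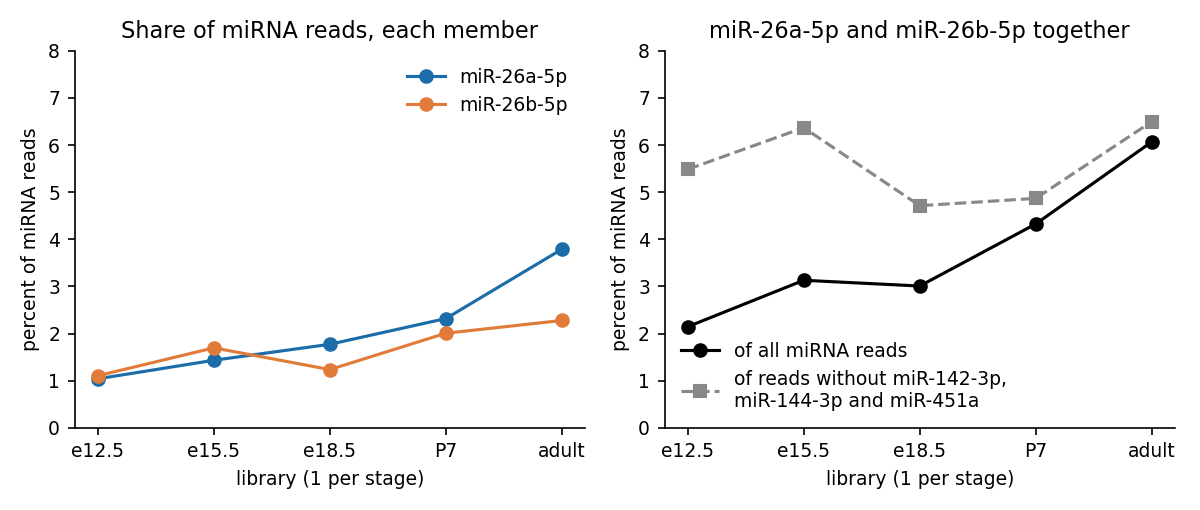
Share of miRNA reads (percent, vertical axis) in the library of each stage (horizontal axis), for each member on the left and for both together on the right. On the right, the solid line uses all miRNA reads and goes from 2.15% to 6.07% between e12.5 and adult, while the dashed line leaves out 3 blood-cell miRNAs and stays between 4.71% and 6.50%.

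The course of the family depended on what it was measured against. miR-142a-3p, miR-144-3p and miR-451a, which mark blood cells, were abundant in the embryonic miRNA reads. Without these 3 miRNAs in the total, miR-26 took 5.48%, 6.37%, 4.71%, 4.87% and 6.50%. On this scale adult exceeded e12.5 by about 1 percentage point, and the lowest share was at e18.5.

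The balance of the members differed between the libraries. The ratio of miR-26a-5p to miR-26b-5p reads was 0.941, 0.845, 1.43, 1.16 and 1.66, so miR-26b was the larger in the youngest libraries and miR-26a from e18.5 on. The 3 embryonic tables each hold a first and a second list of clusters, whose origin is not stated. The study's methods name biological replicates, its supplement names a second library for e18.5 alone, and whether the lists are these could not be settled, so they were added up, and the ratio differed between the lists. At e15.5 it was 1.36 in the first list and 0.781 in the second, and at e18.5 it was 1.62 and 1.03. At e12.5 the lists gave 0.893 and 0.955. The order of the members at e15.5 is therefore not settled, and the adult ratio was only slightly above that of the first e18.5 list. The opposite arms were scarce: miR-26b-3p had 2212 reads in adult and between 51 and 528 in the other libraries, and the miR-26a 3p arms had at most 99 reads where listed.

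Between 25.6% and 31.9% of miR-26 positions lay in 3′UTRs, against 19.5% to 25.3% of the positions of all miRNAs, and the miR-26 share was the larger in every library. A position listed under several regions was counted once, in the order 3′UTR, coding sequence (CDS), 5′UTR, noncoding exon, intron, intergenic. Counted so, CDS held 27.0%, 29.9%, 31.3%, 31.0% and 39.5% of the miR-26 positions. Listed under CDS at all, whatever else applied, were 619, 373, 424, 733 and 600 positions. For all miRNAs the CDS shares counted once were 31.1%, 35.7%, 36.6%, 41.5% and 49.0%, higher than those of miR-26 in every library, and the step up from e18.5 to P7 was not seen for miR-26. Counted in this order, introns held 12.9% to 18.4% and 5′UTRs 1.14% to 1.92% of the miR-26 positions. More positions were listed under introns together with another region, such as 560 of 2189 under introns in all at P7.

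The adult library had a larger share of 3′UTR clusters with a miR-26 site than the e12.5 library. From e12.5 to adult, such a site was found in 614 of 39452 3′UTR clusters (1.56%), 364 of 18219 (1.998%), 380 of 16150 (2.35%), 682 of 29603 (2.30%) and 360 of 15914 (2.26%). The shares were lowest at e12.5 and level from e18.5 on. Between e12.5 and adult the log2 odds ratio was 0.55 ± 0.10 (SE), with an adjusted p of 2.97e-07 by a two-sided Fisher's exact test of the clusters, adjusted by Benjamini-Hochberg over 307 seed families. A larger share in adult was called for 20.8% of these families, and miR-26 ranked 36 by odds ratio. The step from e12.5 to e15.5 also passed (log2 odds ratio 0.37 ± 0.10, adjusted p = 0.00266 by the same exact test over 347 families, 12.7% of which were called larger). The later steps did not, with log2 odds ratios of 0.24 ± 0.11 from e15.5 to e18.5 (adjusted p = 0.0984, exact test, 3.65% called larger), -0.03 ± 0.09 from e18.5 to P7 (adjusted p = 0.868, exact test, 11.8% called smaller) and -0.03 ± 0.10 from P7 to adult (adjusted p = 0.903, exact test, 3.36% called smaller). These later values depended on the lists and the unit counted. From e15.5 to e18.5 the second lists alone gave 0.55 (adjusted p = 0.000183, exact test) and the first lists -0.26. From e18.5 to P7, clusters of at least 20 reads gave 0.45 (adjusted p = 0.00414, exact test) and genes 0.41 (adjusted p = 8.93e-05, exact test), but the second list of e18.5 alone gave -0.31 (adjusted p = 0.0240, exact test). From P7 to adult, genes gave -0.45 (adjusted p = 4.31e-05, exact test). These tests compare the libraries, not the stages, since clusters of a library are not replicates.

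Counted over genes, the direction was the reverse. A miR-26 site lay in the 3′UTR of 584 of 8411 genes with a 3′UTR cluster at e12.5 (6.94%), and then, by age, of 345 of 5937 (5.81%), 364 of 5978 (6.09%), 643 of 8111 (7.93%) and 341 of 5752 (5.93%). The log2 odds ratio between e12.5 and adult was then -0.24 (adjusted p = 0.0205, two-sided Fisher's exact test). A gene had a mean of 4.71 3′UTR clusters at e12.5 and 2.78 in adult liver. For e12.5 against e15.5 it was -0.27 over genes, and with the second lists alone the value over clusters was 0.26 and did not pass (adjusted p = 0.0647, exact test). With only sites of at least 7 matched bases, the log2 odds ratio over clusters between e12.5 and adult was 0.96 (adjusted p = 3.06e-14, exact test).

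**Figure D2:**
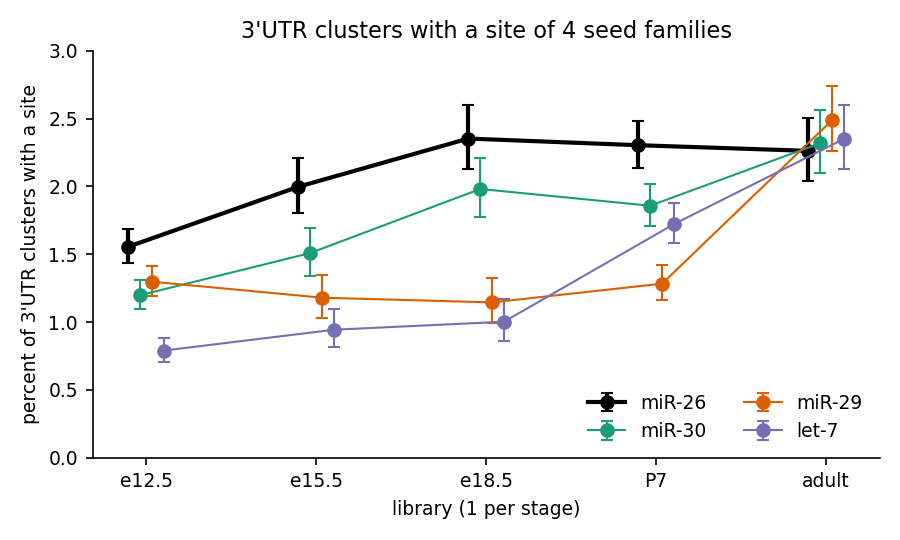
Percent of the 3′UTR clusters (vertical axis) with a site of miR-26, miR-30, miR-29 or let-7 in the library of each stage (horizontal axis). Bars are 95% Wilson intervals, which cover counting error only, and miR-26 is highest of the 4 from e12.5 to P7, while in adult liver the shares lie between 2.26% and 2.49%.

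Beside miR-30, miR-29 and let-7, the families chosen for comparison, miR-26 had the largest share of 3′UTR clusters at e12.5 and the smallest odds ratio between e12.5 and adult. Of these, miR-29 was not abundant early, at rank 67 of 629 families by reads at e12.5. The share of 3′UTR clusters with a site went from 1.20% to 2.32% between e12.5 and adult for miR-30, from 1.30% to 2.49% for miR-29 and from 0.791% to 2.35% for let-7, all called larger by the same test. Their log2 odds ratios were 0.97, 0.96 and 1.59, above the 0.55 of miR-26, though the differences between families were not tested. In miRNA reads, the miR-30 family took 1.41% at e12.5, 8.29% at P7 and 2.20% in adult. The miR-29 family took 0.0858% of miRNA reads at e12.5 and 2.63% in adult, and let-7 2.45% and 22.4%, against 2.15% and 6.07% for miR-26.

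In coding sequences the adult library also had the larger share, 599 of 39007 CDS clusters (1.54%) against 619 of 58352 (1.06%) at e12.5. The log2 odds ratio was 0.54 ± 0.08 (adjusted p = 9.85e-10, two-sided Fisher's exact test over 378 families, 29.1% of which were called larger in adult). Over genes it was 0.19, with an adjusted p of 0.0570 by the exact test.

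In 3′UTRs the sites of miR-26 held a larger share of full matches than the sites of all families together. Of the 3′UTR positions, 8mers made up 15.9% (98 of 617), 20.5% (75 of 365), 21.1% (80 of 380), 19.9% (136 of 683) and 24.2% (87 of 360) from e12.5 to adult, against 7.39% to 8.34% over all families. The Wilson intervals of the e12.5 and adult shares, 13.2% to 18.98% and 20.03% to 28.8%, did not overlap. By 8mer share, miR-26 ranked 14 of 389 families with at least 200 3′UTR positions at e12.5 and 3 of 92 in adult. In CDS the miR-26 8mer share was 10.99% at e12.5 (7.43% over all families, rank 73 of 490) and 16.2% in adult (6.93%, rank 11 of 309). The 6mers of 3′UTRs went the other way, from 43.1% at e12.5 to 24.2% in adult, while over all families they stayed between 52.6% and 54.1%. The 7mer-A1 class was large in every library, at 29.6% to 35.0% of miR-26 3′UTR positions against 16.7% to 17.5% over all families, and the 7mer-m8 class was small, at 9.24% to 16.7% against 21.5% to 22.03%.

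**Figure D3:**
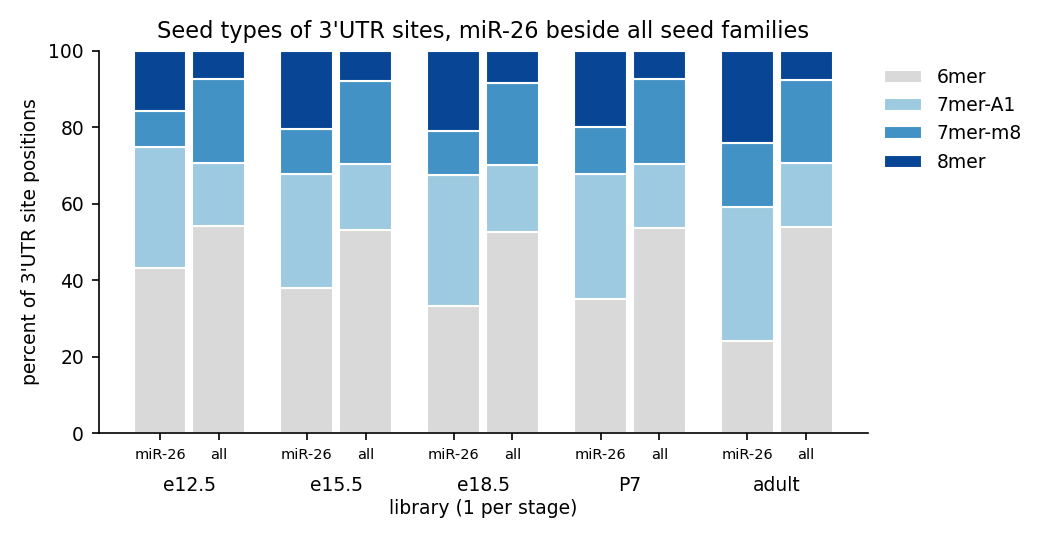
Seed types as percent of 3′UTR site positions (vertical axis), for miR-26 (left bar) beside all seed families (right bar) in each library. The 8mer part of the miR-26 bars goes from 15.9% to 24.2% and its 6mer part from 43.1% to 24.2%, while the bars of all families hardly differ between libraries.

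Conservation went with the length of the match. The tables give each site a conservation score from 0 to 1, and 3′UTR 8mers of miR-26 had a median of 0.998 to 1 in the 5 libraries, against 0.411 to 0.790 for 8mers of all families. For 6mers of miR-26 the median was 0.113 to 0.385, and for those of all families 0.156 to 0.478. A score of at least 0.9 was given to 59.6% to 68.4% of the miR-26 8mers and to 36.2% to 45.2% of all 8mers.

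The 8mer TACTTGAA, sought on the message strand, occurs 976 times in annotated 3′UTRs of coding transcripts (GENCODE vM21), 664 of them in genes with a 3′UTR cluster. At least 1 library listed 216 of these 664 (32.5%, 95% Wilson interval 29.1% to 36.2%), between 69 at e15.5 and 132 at P7. The like shares were 33.8% for miR-30 (TGTTTACA), 20.7% for miR-29 (TGGTGCTA) and 30.2% for let-7 (CTACCTCA). Listed miR-26 8mers had a median position at 42.1% of the length of their 3′UTR exon from its 5′ end, against 54.4% for those in no list. Their 60 flanking bases held a median of 61.7% A or T, against 65%. These are descriptions of positions that share messages, with no test.

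Recurrence across the libraries was low but above that of other miRNAs. Of 1480 miR-26 3′UTR positions, 934 were listed in 1 library and 34 in all 5, which is 2.30% against 0.573% of the 373138 3′UTR positions of all miRNAs. Among 8mers 7.33% were in all 5 libraries and among 6mers 0.327%. The median conservation was 0.284 for positions in 1 library, 0.792 in 2, 0.997 in 3, 0.982 in 4 and 0.966 in 5. The e12.5 and adult libraries shared 115 positions, which are 18.6% of the e12.5 and 31.9% of the adult 3′UTR positions. A position missing from a list may lie in a cluster below the lowest listed height of 5 reads.

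Reads at a site were scaled to 1000000 summed cluster reads of the library, written RPM. Among the 115 shared positions, 31 had at least 4-fold higher RPM in adult than at e12.5 and 13 at least 4-fold lower, with a median log2 ratio of 0.61. Of the 11741 3′UTR positions of all miRNAs listed in both, 17.6% were at least 4-fold higher and 15.1% at least 4-fold lower, with a median of 0.20. For miR-26 these shares were 27.0% and 11.3%. Scaled to the reads of mRNA clusters alone, 47 miR-26 positions were higher (40.9%) and 7 lower (6.09%), against 28.7% and 7.93% of all positions, and the medians were 1.40 for miR-26 and 0.99 for all positions. With the first of the e12.5 lists alone, 2 of 35 positions were higher (5.71%) and 25 lower (71.4%), against 4.08% and 64.4% of all positions, with medians of -2.70 for miR-26 and -2.55 for all positions. With at least 20 reads in both libraries, 18.6% of 70 miR-26 positions were higher and 11.4% lower against 12.1% and 11.8% of all positions, and the medians were 0.30 and 0.25. There is no test of these counts with 1 library a stage.

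The 12 genes with the highest 3′UTR site values over all 5 libraries had varied roles and courses. Values are RPM by age, and the reads of a cluster cannot be assigned to 1 miRNA. The strongest site was in 0610031J06Rik, now named Glmp, which encodes a lysosomal membrane glycoprotein: 5.62, 3.87, 59.2, 71.0 and 32.0. Rnf149, a ubiquitin ligase, had 3.88, 1.33, 50.8, 28.0 and 35.5 at a conserved 8mer. Sema6d, a membrane-bound guidance protein, had 2.85, 5.45, 34.2, 27.0 and 10.1, also at a conserved 8mer. In these 3 genes the early libraries were low and the level was higher from e18.5 on. Not all of the 12 sites were conserved: the score was 0 at 0610031J06Rik, and 0, 0.002 and 0 at the 8mers of Tmem128, Slc36a1 and Rac2. It was 0.265 at Ttpa and 0.62 at Mcl1, and at least 0.938 at Ankrd11, Atg101, Canx and Reep4.

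Ttpa, the hepatocyte protein that carries vitamin E, showed the largest difference between e12.5 and adult of the 12 sites named first, with 0.958, 1.51, 21.4, 21.4 and 36.8, or 38.4-fold (66.5-fold when scaled to the reads of mRNA clusters, which multiplies every ratio of adult to e12.5 alike). Another miR-26 position in the Ttpa 3′UTR was listed at P7 and in adult. The lysosomal amino acid carrier Slc36a1 had 3.25, 9.32, 13.1, 14.5 and 15.7. Tmem128, a membrane protein, had 5.55, 8.35, 34.2, 13.4 and 4.90. Atg101, a part of the complex that starts autophagy, had 7.69, 2.85, 18.4, 11.5 and 9.16. On the RPM scale Ttpa and Slc36a1 were highest in adult liver, Tmem128 and Atg101 at e18.5. With mRNA cluster reads as the scale, the highest library of Atg101 would be adult.

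The opposite course was seen at the named sites of Mcl1 and Ankrd11. Mcl1, which protects cells from apoptosis, had 21.7, 15.3, 10.99, 2.0001 and 0.964, a 22.5-fold difference between e12.5 and adult. The ratio of adult to e12.5 was 0.0445, or 0.0769 when scaled to mRNA clusters. Ankrd11, a chromatin regulator, had 23.5, 33.4, 29.1, 20.1 and 0.844, and its drop lay between P7 and adult. Both clusters held a seed match of another abundant family: miR-142a-3p at Ankrd11 in all 5 libraries and miR-378a-3p at Mcl1 in 2. Another miR-26 position in the Mcl1 3′UTR was listed at e18.5 and in adult. Rac2, a GTPase of blood cells, had 2.34, 5.75, 32.4, 24.4 and 1.29. The chaperone Canx had 5.46, 23.4, 9.38, 5.88 and 3.09, with a miR-27b-3p match in the same cluster in 4 libraries. Reep4, which shapes the endoplasmic reticulum, varied least of the 12, with 4.55, 11.5, 7.07, 8.36 and 4.94. In 4 of the 12 genes a site of another of the top 20 seed families lay in the cluster in at least 1 library.

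**Figure D4:**
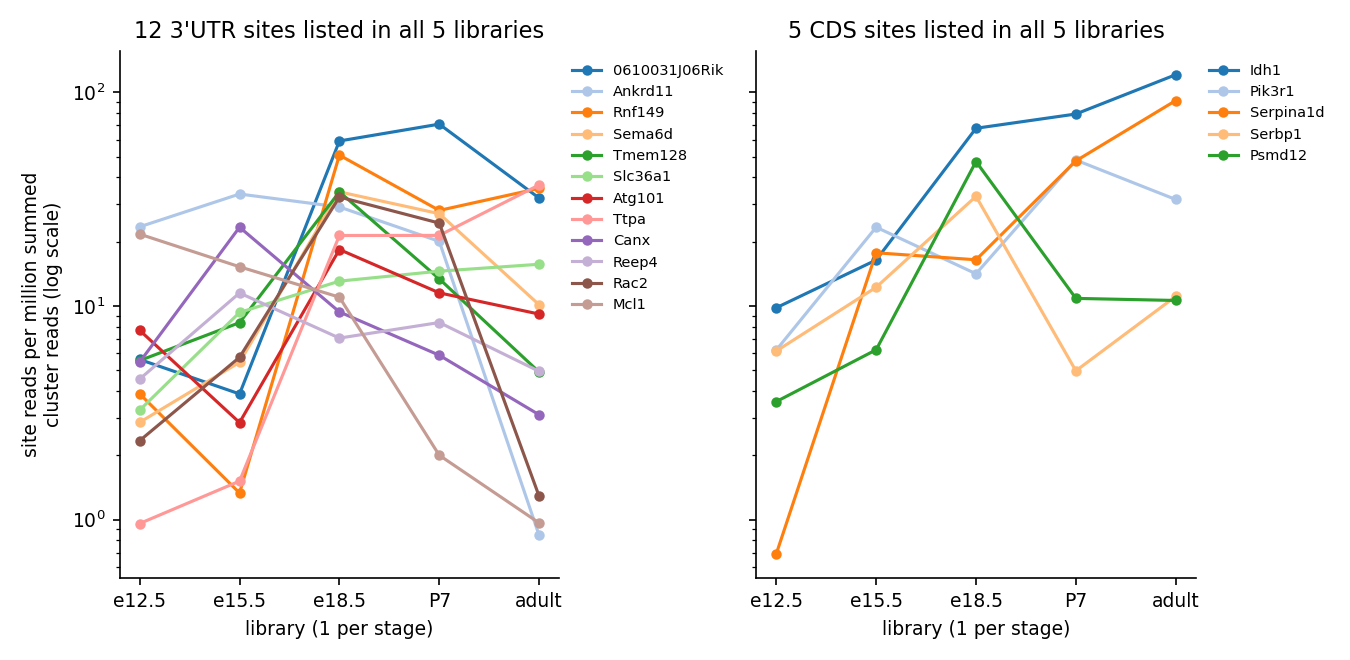
RPM (reads at the site per 1000000 summed cluster reads, log scale) in the library of each stage, for the 12 strongest 3′UTR sites (left) and the 5 strongest CDS sites (right) listed at the same position in all 5 libraries. Ttpa and Idh1 go up toward adult liver, from 0.958 to 36.8 and from 9.81 to 120.9, while Mcl1 goes down from 21.7 to 0.964.

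Over the 34 3′UTR sites listed in all 5 libraries, 17 were 8mers and 2 were 6mers. From e12.5 to adult, 1, 5, 14, 8 and 6 of them had their highest RPM in that library, and 11, 6, 1, 2 and 14 their lowest. These counts were not repeated with mRNA cluster reads as the scale. The highest and lowest library differed by a median of 11.8-fold, from 1.69-fold at Hectd3 to 53.1-fold at Ube2j1. More than a single course therefore runs through the recurrent sites.

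Among sites listed in all 5 libraries, the highest geometric mean over 3′UTRs and coding sequences was at a coding site. Idh1, the cytosolic isocitrate dehydrogenase, had 9.81, 16.4, 67.9, 79.2 and 120.9 RPM, each library above the one before. Pik3r1, the regulatory subunit of phosphoinositide 3-kinase, had 6.22, 23.4, 14.1, 48.2 and 31.5. Serpina1d, an alpha-1-antitrypsin of hepatocytes, had 0.691, 17.7, 16.5, 47.8 and 91.5, or 132-fold between e12.5 and adult (229-fold when scaled to mRNA clusters), but near-identical Serpina1 genes can share its reads. The mRNA-binding protein Serbp1 had 6.15, 12.2, 32.6, 4.97 and 11.1. Psmd12, of the proteasome, had 3.57, 6.24, 47.4, 10.8 and 10.6. Serbp1 and Psmd12 were highest at e18.5, and Serbp1 at P7 was the only postnatal value of the 5 genes below that of e12.5. All 5 sites were 7mer-A1, and no other of the top 20 families had a match in their clusters.

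Of the 98 3′UTR 8mers of e12.5, 31 (31.6%) were listed in neither P7 nor adult, against 78.6% of the 8mers of all miRNAs. Of the 87 of adult liver, 46 (52.9%) were listed in neither e12.5 nor e15.5, against 71.9%. Among the 31 early 8mers, the one with the highest value at e12.5 was in Ssx2ip, a centrosome protein, with 12.8, 97.3 and 9.53 RPM in the 3 embryonic libraries, and its clusters also held miR-144-3p and miR-181b-5p matches. Stmn1, which destabilises microtubules in dividing cells, had 2.99, 2.91 and 4.84 RPM there, with a miR-144-3p match in the same cluster. Itga3, an integrin, had 3.74 RPM at e12.5 alone, with a miR-181b-5p match in the cluster. Ppp2r3a, a phosphatase subunit, had 3.50 at e12.5 and 1.45 in the e15.5 library, and another miR-26 site in its 3′UTR was listed at e12.5, e18.5 and P7. At the other end, Ero1lb, an oxidase of the endoplasmic reticulum, had 15.7 RPM at P7 and 18.6 in adult. The lysosomal protease cathepsin L (Ctsl) had 1.27 and 6.19, the protein convertase Furin 5.70 and 5.75, and Ndfip2, an adaptor of ubiquitin ligases, 0.788 and 4.34. The adult clusters also held a miR-186-5p match at Ero1lb and a miR-194-5p match at Ctsl. All 4 late sites were thus listed at P7 as well.

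Genes known as miR-26 targets from earlier work were often listed, though rarely in many libraries. A miR-26 3′UTR site was found in any library in 20 of 29 such genes (69.0%) against 11.8% of 11065 genes with a 3′UTR cluster, and in at least 2 libraries in 9 of 29 against 4.998%. The listed targets had a median of 10 3′UTR clusters in their best library and all genes a median of 3. Of the genes with 7 to 12 clusters 23.1% had a site, and of those with 13 or more 39.4%. The list is general knowledge chosen with results of these data known, and no test was run on it.

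**Figure D5:**
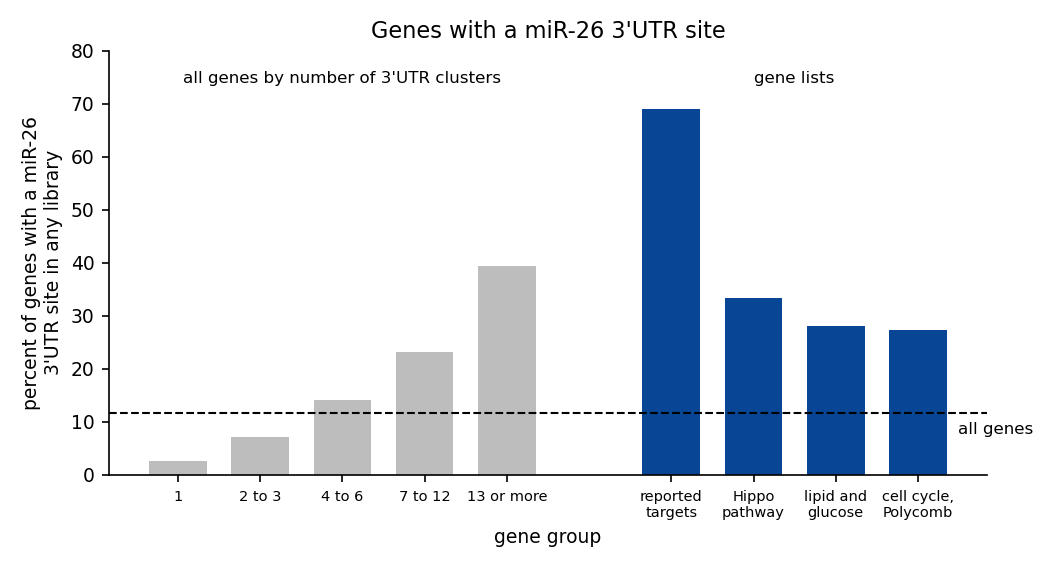
Percent of genes with a miR-26 3′UTR site in any library (vertical axis), for all genes grouped by their number of 3′UTR clusters (grey) and for 4 gene lists (blue), with the dashed line at 11.8% for all genes. The reported targets stand at 69.0%, above the 39.4% of genes with 13 or more clusters, and the other lists lie between 27.3% and 33.3%. The metabolic and cell cycle lists share genes with the reported targets.

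For genes of the lists, reads are given as listed, unscaled, so they are not compared between libraries. Smad1, which carries signals of bone morphogenetic proteins, had a conserved 8mer with 20 reads at e12.5, 39 at P7 and 75 in adult, or 0.446, 2.36 and 3.01 RPM. Cyclin D2 (Ccnd2) had a conserved 8mer with 51, 12 and 44 reads in the last 3 libraries. Acsl3, which activates fatty acids, had 18 reads at e12.5 and 46 in adult at a conserved 8mer. Pck1, an enzyme of gluconeogenesis, had 74 reads at P7 and 38 in adult, at a 7mer-m8. In these genes the adult library was among those with the site.

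Other reported targets had their sites in embryonic and P7 liver. The kinase Gsk3b had 52 reads at e12.5 and 123 in the e15.5 library at a conserved 8mer. Cpeb4, which controls translation through the poly(A) tail, had 263 and 472 reads in the first 2 libraries and 31 at P7. Its relative Cpeb3 had 22 and 5 in the e15.5 and e18.5 libraries. Tdg, which repairs and demethylates DNA, had a 6mer with 14 and 38 reads in the first 2 libraries and 12 at P7. Ezh2, the Polycomb methyltransferase, had a conserved 8mer with 23 reads, at e12.5 alone. Hmga2, Lin28b, Cdk6 and Rb1 had 3′UTR clusters but no listed miR-26 site in them.

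The host genes differed. Ctdsp2, which carries Mir26a-2, had a conserved 7mer-A1 in its own 3′UTR with 106 and 38 reads in the first 2 libraries and 18 at P7, and a 7mer-m8 with 22 reads at e15.5. Ctdspl and Ctdsp1 had between 1 and 10 3′UTR clusters in each library and no listed miR-26 site in any region.

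In the Hippo pathway, which restrains organ growth through the kinases Stk3, Stk4, Lats1 and Lats2 and the effector Yap1, 13 of 39 genes (33.3%) had a miR-26 3′UTR site in any library, against 11.8% of all genes. The list had a median of 5 clusters a gene, and 14.1% of the genes with 4 to 6 clusters had a site. By library 5, 5, 2, 7 and 0 Hippo genes had one, and the 0 of 31 in adult liver compares with 5.93% of all genes there. At single positions, Taok1, a kinase above the core, had 32 reads at e15.5 and 25 at P7. The phosphatase subunit Ppp1cc had 15 and 27 in the e15.5 and e18.5 libraries, and Ppp2ca had 30 and 37 in the first 2 libraries. Both also had miR-26 sites in coding sequence, Ppp1cc in all 5 libraries and Ppp2ca in adult. The kinase Csnk1d had 119 and 33. These 3′UTR positions of Ppp1cc, Ppp2ca and Csnk1d were 6mers.

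In lipid and glucose metabolism 7 of 25 genes with a 3′UTR cluster (28.0%) had a miR-26 site, among them Acsl3, Pck1 and Gsk3b with the values above. Scd2, a desaturase of fatty acids, had a 6mer with 21 and 5 reads in the same libraries as Cpeb3. Of the cell cycle and Polycomb genes 6 of 22 (27.3%) had a site. Cdkn1b, an inhibitor of cyclin-dependent kinases, had a 6mer with 13 reads at e18.5 and 7 at P7. The medians of 8 and 6.5 clusters of these lists compare with 3 for all genes, and a site was found in 14.1% of genes with 4 to 6 clusters and in 23.1% of those with 7 to 12. The lists overlap with the reported targets. Of the genes with a site, Acsl3, Acsl4, Pck1 and Gsk3b of the metabolic list and Ccnd2, Ccne1, Ccne2 and Ezh2 of the cell cycle list are also reported targets.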

How the data were processed

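The authors used FASTX-Toolkit on the reads, aligned them to mm10 and miRNA precursors by Bowtie, grouped overlapping reads into clusters, annotated these and scanned them for seeds of known mouse miRNAs. Tool versions are not given in the sources used here, and the submitters' processing notes also name mm9. The deposited tables give the highest read number of a cluster at each site as an unscaled signal of at least 5 (its column header differs at e12.5, with target in place of peak), a conservation score from 0 to 1 and a duplex energy score. The deposited names also hold 1 number per miRNA gene copy and list. Of these copies the highest number was used and the lists of a library were added. The members and gene lists were chosen with earlier results of these data known.

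Clusters that overlapped on a strand were joined across lists. Site reads are the highest per list, added over lists, per 1000000 summed cluster reads (RPM). Families are miRNAs with the same bases 2 to 8. For families with at least 50 clusters of a region in both libraries, shares were compared with a two-sided Fisher's exact test (SciPy 1.17.1) with Benjamini-Hochberg adjustment, called under 0.05. The comparison was tested on simulated data. Each stage has 1 library, although the methods name 2 biological replicates, so tests cover counting error only, and read numbers without molecular identifiers are not independent molecules.

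Named genes are the 12 with the highest geometric mean at a 3′UTR site in all 5 libraries, the first 5 likewise for CDS sites, the 4 strongest 3′UTR 8mers of e12.5 absent from P7 and adult, the 4 of adult absent from e12.5 and e15.5, the host genes, and list genes with a 3′UTR site in at least 2 libraries. For a list gene the position in most libraries is given, and some genes that the rules name are not reported here. Ezh2, Hmga2, Lin28b, Cdk6, Rb1, Acsl4, Ccne1, Ccne2, Hectd3, Ube2j1 and the genes of the closing section were named after their values were seen. Alternatives were minimum cluster reads of 10 and 20, at least 7 matched bases, genes in place of clusters, single lists, other scalings and other miRNA totals. Genome letters were read from GRCm38.p6.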

Additional observations from a re-analysis of the deposited data

How the results depend on the processing

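The larger miR-26 share of clusters in adult than at e12.5 kept its direction and call under each alternative except genes in place of clusters, where the 3′UTR log2 odds ratio was -0.24 and the CDS value 0.19. Over genes the value also turned to -0.27 for e12.5 against e15.5 and to 0.41 for e18.5 against P7 (adjusted p = 8.93e-05, exact test), and was -0.45 for P7 against adult, now past the threshold. With the second list alone, e12.5 against e15.5 fell short (0.26, adjusted p = 0.0647, exact test), e15.5 against e18.5 passed (0.55) and e18.5 against P7 passed (-0.31). With the first list alone these gave -0.26 for e15.5 against e18.5 and 0.089 for e18.5 against P7. Clusters of at least 10 and 20 reads gave 0.036 and 0.45 for e18.5 against P7, the latter past the threshold (adjusted p = 0.00414, exact test), and sites of at least 7 matched bases 0.20 for P7 against adult. The cause was not tested. Of the 115 shared positions, 31 were higher and 13 lower: with at least 20 reads in both libraries 13 and 8 of 70 (all positions 12.1% and 11.8%), with the first list 2 and 25 of 35 (4.08% and 64.4%), with the second list 19 and 8 of 111 (14.03% and 13.5%), and with mRNA cluster reads, an alternative chosen after seeing the data, 47 and 7 (28.7% and 7.93%). The median ratio moved the zero point by 0.20. The miR-26 share of miRNA reads, with the numbers of all gene copies added, was 2.93%, 4.12%, 3.99%, 5.16% and 6.76% from e12.5 to adult. The copies of miR-26a carried nearly the same number (868496 and 867457 in adult), and the reads of its 2 loci together made up 99.1% of the higher. Adding the copies therefore counts reads of miR-26a more than once. With the highest copy number, the first list gave 2.17%, 1.78% and 2.96% and the second 2.14%, 3.58% and 3.14% in the embryonic libraries. Without the 3 blood-cell miRNAs the share was 5.48%, 6.37%, 4.71%, 4.87% and 6.50%. No paired analysis was possible because each stage has 1 library and replicate numbers carry no pairing.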

Other observations

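Some miR-26 sites outside the comparisons above stood out after their values were seen, and are given as values. Alas2, which starts heme synthesis in red cells, had a 7mer-A1 in its 3′UTR with 610 and 54 reads in the first 2 embryonic libraries, and a 6mer nearby with 76 and 118 in the e15.5 and e18.5 libraries. It was the only one of the 7 erythroid markers with a 3′UTR cluster to have a miR-26 site there (14.3%), and none of the 5 hepatocyte markers had one, beside 11.8% of all genes. Cpeb4 had a conserved 6mer a short way before its 7mer-A1, with 785, 450 and 64 reads in the embryonic libraries.

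The predicted duplex energy was lower for miR-26a than for miR-26b at 2685 of the 4659 positions listed for both and higher at 1676. The medians were -7.50 for miR-26a and -6.70 for miR-26b. The members were not always listed together, although they share a seed: in adult liver 1284 positions named both, 73 only miR-26a and 48 only miR-26b.

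Most miR-26 3′UTR clusters also matched other seeds. The median cluster held matches of 4 to 5 seed families, between 14.7% and 18.6% of the clusters held a site of another of the top 20 families, and only 22 to 28 clusters a library had no other family.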
